A study of Microcebus murinus with 8 samples.

Results

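MiR-23b, miR-27b and miR-24 are small RNAs cut from hairpins that lie close together on 1 precursor transcript in human and mouse. They were followed here in blood plasma of the mouse lemur Microcebus murinus, a small nocturnal primate, fed fat from different sources. The rows were chosen by name alone, as those called mmr-miR-23b, mmr-miR-27b and mmr-miR-24 with their species prefix, and these are 3 of the 108 microRNAs listed in each sample. The samples were 4 from wild-type animals on a dairy fat-based diet (samples 1 to 4) and 4 from wild-type animals on a vegetable fat-based diet (samples 5 to 8). The sources used here give no ages, length of feeding or baseline sample. They do not say whether each sample came from its own animal, so the spread behind each p-value may be technical. The study asked whether the source of dietary fat is reflected in circulating microRNAs.

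A microRNA guides a silencing complex to messenger RNAs and lowers their translation or stability. In human and mouse, the miR-23b, miR-27b and miR-24 hairpins sit in an intron of AOPEP, and a paralogous cluster elsewhere in the genome yields miR-23a, miR-27a and the same mature miR-24. The value of miR-24 can therefore hold product of either cluster, whereas miR-23b and miR-27b belong to the cluster in AOPEP. MiR-23a and miR-27a are near-identical to them in sequence, and how the authors' counting assigned such reads is not known here, so the values of miR-23b and miR-27b may hold reads of the paralogous cluster too. In human and mouse, the cluster is abundant in endothelial cells and vascularised tissue. In these species, and not only in those cells, miR-23b acts on TGF-beta and NF-kappaB signalling, miR-27b on genes of lipid metabolism and fat cell differentiation, and miR-24 on cell cycle regulators. The rows name no hairpin arm and no mature sequence was at hand, so a value is that of the named microRNA as the authors counted it. MiR-23a and miR-27a are not analysed here.

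Levels are given as RPM, which here means reads per 1000000 reads of the 108 listed microRNAs. All values of a sample were whole multiples of 1 step, and taking that step as the value of 1 read gave an implied read total of 1.41 to 3.44 M (M, 1000000 reads) in the dairy fat samples and 1.06 to 4.004 M in the vegetable fat samples. A microRNA with 3 reads would stand at 0.749 RPM in the deepest library, vegetable sample 7, and at 2.83 RPM in the shallowest, vegetable sample 8. All 3 members were far above that in every sample, and all 3 passed the filter for testing (1 RPM or more in at least 4 samples), as did 104 of the 108.

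MiR-23b, the first hairpin of the cluster, stood at 6640, 2391, 1651 and 2680 RPM in dairy samples 1 to 4 and at 2806, 3645, 1743 and 5801 RPM in vegetable samples 5 to 8. The highest sample of each diet, dairy sample 1 and vegetable sample 8, lay well above the others, and the diets overlapped over most of their range. With dairy fat the mean was 3340 ± 2242 RPM (SD, n = 4), and with vegetable fat 3499 ± 1721 RPM (SD, n = 4). In rank, miR-23b was between the 18th and the 33rd most abundant of the listed microRNAs.

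MiR-27b, the member tied to lipid metabolism, stood at 4969, 3361, 1708 and 2577 RPM in dairy samples 1 to 4 and at 2784, 4155, 2158 and 6164 RPM in vegetable samples 5 to 8. Dairy sample 1 and vegetable sample 8 were again the highest, dairy sample 3 and vegetable sample 7 the lowest of their diets, and the diets overlapped. Means were 3154 ± 1386 RPM with dairy fat (SD, n = 4) and 3815 ± 1774 RPM with vegetable fat (SD, n = 4).

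MiR-24, which either cluster can supply, was the scarcest member in every sample. It stood at 818, 435, 332 and 468 RPM in dairy samples 1 to 4 and at 390, 638, 331 and 725 RPM in vegetable samples 5 to 8. The same samples were highest and lowest within each diet as for miR-23b and miR-27b. Means were 513 ± 211 RPM with dairy fat (SD, n = 4) and 521 ± 190 RPM with vegetable fat (SD, n = 4), and the rank was between 49th and 55th of 108.

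**Figure D1:**
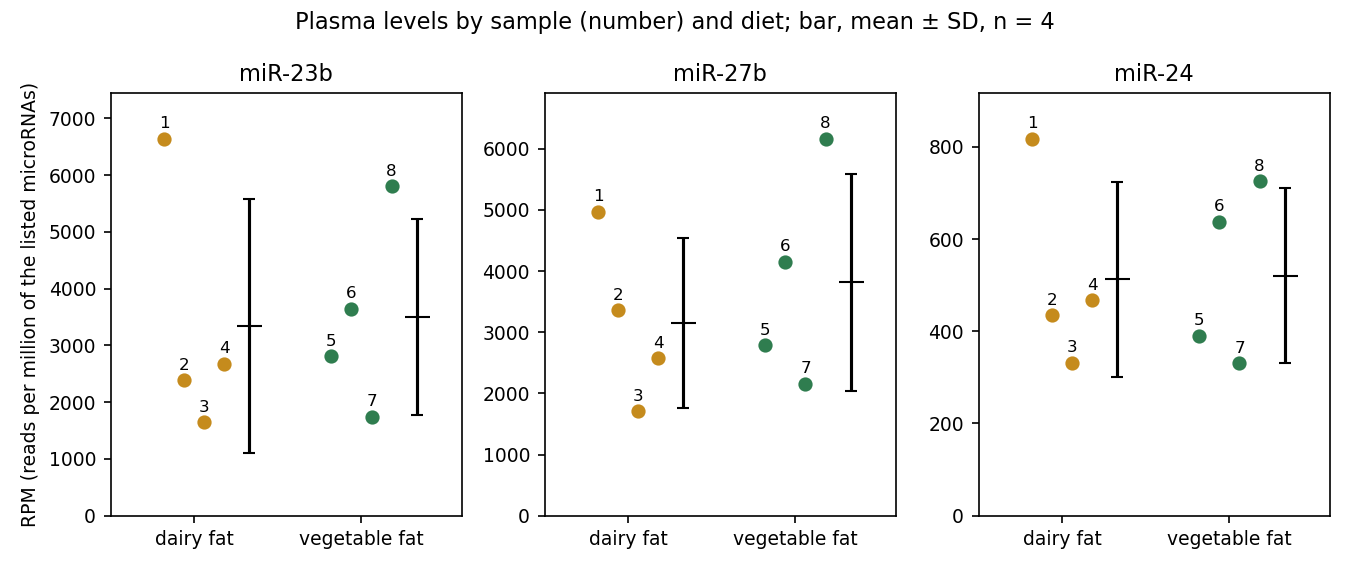
Level of each member in RPM (vertical axis, from 0) in the 4 dairy fat and 4 vegetable fat samples, numbered as in the text, with the mean and SD of each diet as a bar. For all 3 members samples 1 and 8 are the highest of their diets, samples 3 and 7 the lowest, and the diets overlap.

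Counting error was small beside these differences between samples. MiR-23b rested on 5675 to 9353 implied reads per sample, miR-27b on 5872 to 10429 and miR-24 on 770 to 1501. For the scarcest value, miR-24 in vegetable sample 8, the exact Poisson 95% interval was 675 to 779 RPM. Such intervals cover counting error only, since reads may be copies of 1 molecule. Across all 8 samples the highest level was 4.02 times the lowest for miR-23b, 3.61 times for miR-27b and 2.47 times for miR-24, against a median of 2.72 times over the 104 microRNAs tested. Among the 20 tested microRNAs closest in mean level, 17 had a smaller SD over samples than miR-23b, 17 a smaller one than miR-27b and 8 a smaller one than miR-24.

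The comparison of the diets called none of the 3 members. Vegetable fat over dairy fat gave a fold of 1.102 for miR-23b (log2 difference 0.14 ± 0.47 SE, 95% interval −0.91 to 1.19), 1.20 for miR-27b (0.27 ± 0.40, −0.63 to 1.17) and 1.02 for miR-24 (0.03 ± 0.37, −0.80 to 0.86). The adjusted p was 0.999 for each, by limma on log2(RPM + 1) fitted over all 104 microRNAs with Benjamini-Hochberg adjustment. Of all microRNAs tested, 0.0% were called, and 0 had an unadjusted p under 0.05. The median difference over all of them was 0.07, so the members lay 0.07, 0.20 and −0.04 from it, in the same order.

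The intervals were wide. They reached from a fold of 0.532 to 2.28 for miR-23b, from 0.644 to 2.25 for miR-27b and from 0.573 to 1.81 for miR-24. Changes within those limits were not excluded by these samples, and the size of change that could be detected was not computed. The signs were not stable either. Without vegetable sample 8 the log2 difference was −0.15 for miR-23b, −0.0028 for miR-27b and −0.16 for miR-24, and without dairy sample 1 it was 0.54, 0.52 and 0.28. With upper quartile factors as scaling, which moved the median of all microRNAs from 0.07 to −0.17, the differences were −0.09, 0.03 and −0.20, of which miR-23b and miR-27b still lay above that median.

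Summed, the 3 members took 0.369% to 1.27% of the listed reads of a sample. This share was 0.701% ± 0.377 with dairy fat and 0.783% ± 0.367 with vegetable fat (n = 4 each, SD; difference 0.0828 percentage points, two-sided exact permutation p = 0.657 over the 70 assignments of samples, which can give no p below 0.0286). That difference ran from −0.0791 without vegetable sample 8 to 0.263 percentage points without dairy sample 1. Within the sum miR-23b held 38.6% to 53.4% of the reads, miR-27b 40.0% to 54.3% and miR-24 5.72% to 8.99%.

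The members rose and fell together from sample to sample. The Pearson correlation of log2(RPM + 1) over the 8 samples was 0.967 between miR-24 and miR-23b (exact permutation p = 0.000298, adjusted p = 0.000893), 0.935 between miR-27b and miR-23b (p = 0.000918, adjusted p = 0.00124) and 0.930 between miR-24 and miR-27b (p = 0.00124, adjusted p = 0.00124), adjusted over these 3 pairs. Spearman's rho was 0.905 for miR-24 and miR-23b, 0.905 for miR-27b and miR-23b, and 0.881 for miR-24 and miR-27b (exact permutation p = 0.00456, 0.00456 and 0.00724; adjusted p = 0.00685, 0.00685 and 0.00724). The order of samples was thus nearly the same for each member, with samples 1, 8 and 6 highest and samples 3 and 7 lowest.

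Without the 2 samples farthest from the median of the member named second, r was 0.912 for miR-24 and miR-23b and 0.889 for miR-27b and miR-23b (dairy 1 and vegetable 8 left out), and 0.934 for miR-24 and miR-27b (dairy 3 and vegetable 8 left out), with adjusted p of 0.0167, 0.0264 and 0.0167 by the exact permutation of 6 samples. With the diet means removed r was 0.969, 0.941 and 0.948 in the same order (adjusted p = 0.00521, 0.00694 and 0.00694, exact permutation within the diets). A value within each diet alone is not given, since 4 samples are too few. On the centred log ratio, which sets each microRNA against the mean of all tested in its sample, r was 0.879, 0.810 and 0.801 (adjusted p = 0.0124, 0.0163 and 0.0163, exact permutation).

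**Figure D2:**
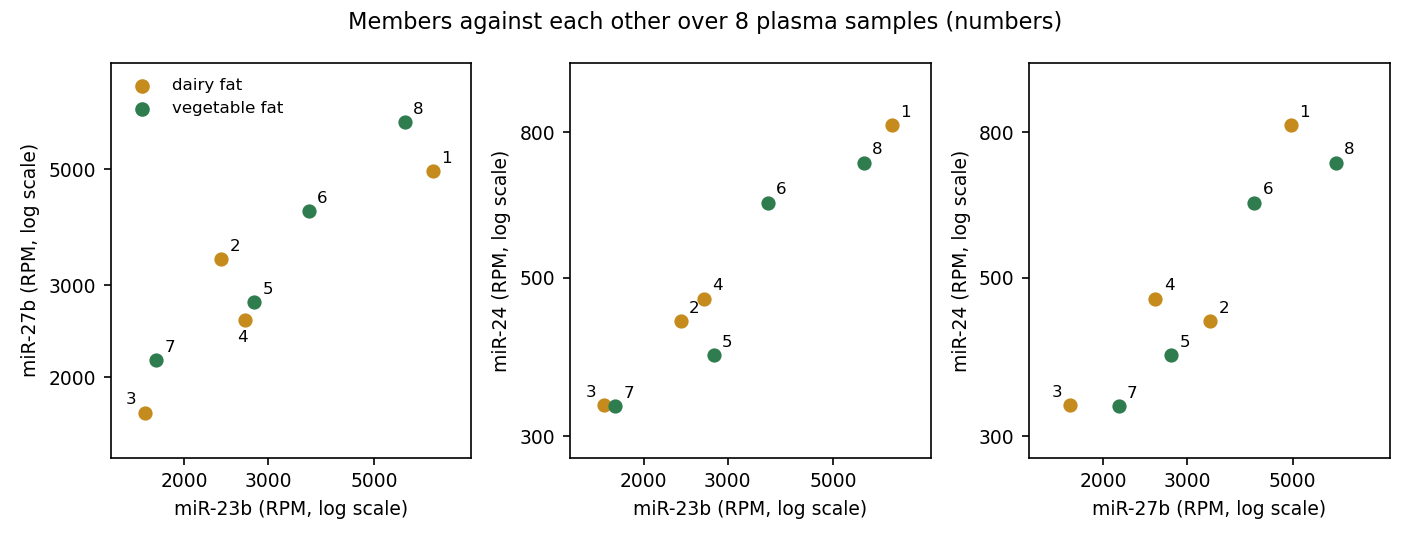
Each member against each other member over the 8 samples (numbers), in RPM on log axes on both sides, with the diets in colour. The points of both diets follow 1 common rising band, from samples 3 and 7 at the low end to samples 1 and 8 at the high end, with r of 0.935, 0.967 and 0.930 from left to right.

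All 3 members stood lower in libraries with more reads. By limma with diet in the model, each doubling of the implied read total went with a log2 change of −0.99 ± 0.20 (SE) for miR-23b (adjusted p = 0.00147), −0.81 ± 0.20 for miR-27b (adjusted p = 0.00505) and −0.69 ± 0.22 for miR-24 (adjusted p = 0.0181). The background was high. Of the 104 microRNAs 34.6% were called for a slope in either direction 32.7% for a slope below 0 and 1.92% for a slope above 0, and the median slope was −0.30. The members' slopes lay 0.69, 0.51 and 0.39 below that median, and 22 to 31 microRNAs had lower slopes.

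The calls of these slopes depended on which libraries were kept, and their size on the scaling. Without dairy sample 1 and vegetable sample 8, the libraries with fewest reads, the slopes were −0.90, −0.91 and −0.89 for miR-23b, miR-27b and miR-24 with limma adjusted p of 0.230, 0.220 and 0.320, and 19 microRNAs were called in place of 36. With these 6 samples the slopes of miR-27b and miR-24 were steeper than with all 8 and that of miR-23b slightly less steep, but none of the 3 passed. On the centred log ratio the slopes were −0.57, −0.39 and −0.27 (limma adjusted p = 0.0374, 0.138 and 0.337). That of miR-24 also missed the threshold with upper quartile factors (−0.51, limma adjusted p = 0.0956), without dairy sample 1 (−0.62, adjusted p = 0.128) and without vegetable sample 7 (−0.69, adjusted p = 0.0651).

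As implied reads the members differed less between libraries than the library totals did. In dairy samples 1 to 4 miR-23b had 9353, 7419, 5675 and 8602 implied reads and in vegetable samples 5 to 8 it had 9221, 6764, 6980 and 6157. The library totals differed 3.77-fold, but the reads of miR-23b differed 1.65-fold, those of miR-27b 1.78-fold and those of miR-24 1.95-fold between the lowest and the highest library. These were the 3 smallest spans among the 104 microRNAs tested, whose median span in reads was 3.90-fold. This span was chosen as a measure after the values were seen and carries no test.

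**Figure D3:**
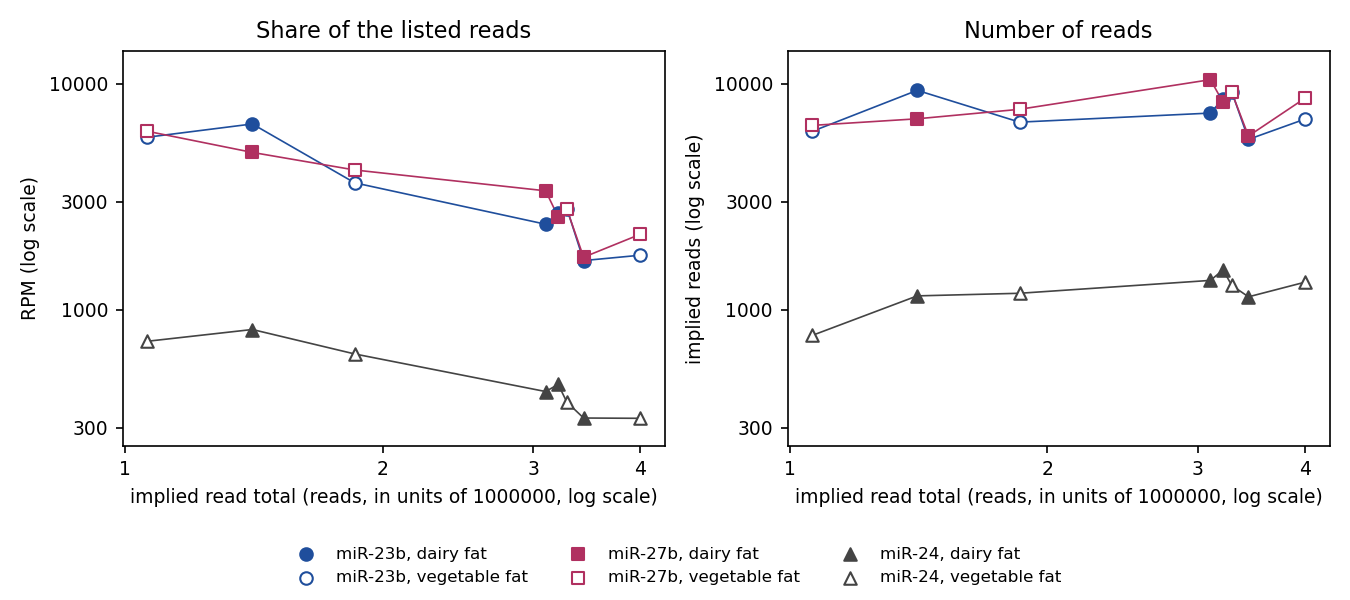
Left, level of each member in RPM against the implied read total of its library, in units of 1000000 reads; right, its number of implied reads against the same total, with log axes throughout and filled symbols for dairy fat, open ones for vegetable fat. The levels fall with the total, from 5801 RPM in the shallowest to 1743 RPM in the deepest library for miR-23b, while its reads stay between 5675 and 9353.

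The correlation of the members with read total itself restates the slopes without diet in the model, since it uses the same values. RPM is reads divided by that total, so reads that stay level across libraries give RPM that falls with the total. The correlation with log2 read total was −0.932 for miR-23b, −0.923 for miR-27b and −0.937 for miR-24 (exact permutation p = 0.00144, 0.000546 and 0.00136, adjusted p = 0.00144 for each over the 3 members). Spearman's rho was −0.857, −0.952 and −0.952 (exact permutation p = 0.0107, 0.00114 and 0.00114; adjusted p = 0.0107, 0.00171 and 0.00171). Without dairy sample 1 and vegetable sample 8, r was −0.816, −0.789 and −0.927 (exact permutation p = 0.0194, 0.0653 and 0.00417), so that of miR-27b no longer passed at its unadjusted p. With read total removed from both members of a pair, r was 0.740 for miR-24 and miR-23b, 0.534 for miR-27b and miR-23b, and 0.483 for miR-24 and miR-27b (exact permutation of the residuals, adjusted p = 0.128, 0.236 and 0.236). None of the 3 pairs passed the threshold then, and the part of read total in the common movement was not tested further.

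**Figure D4:**
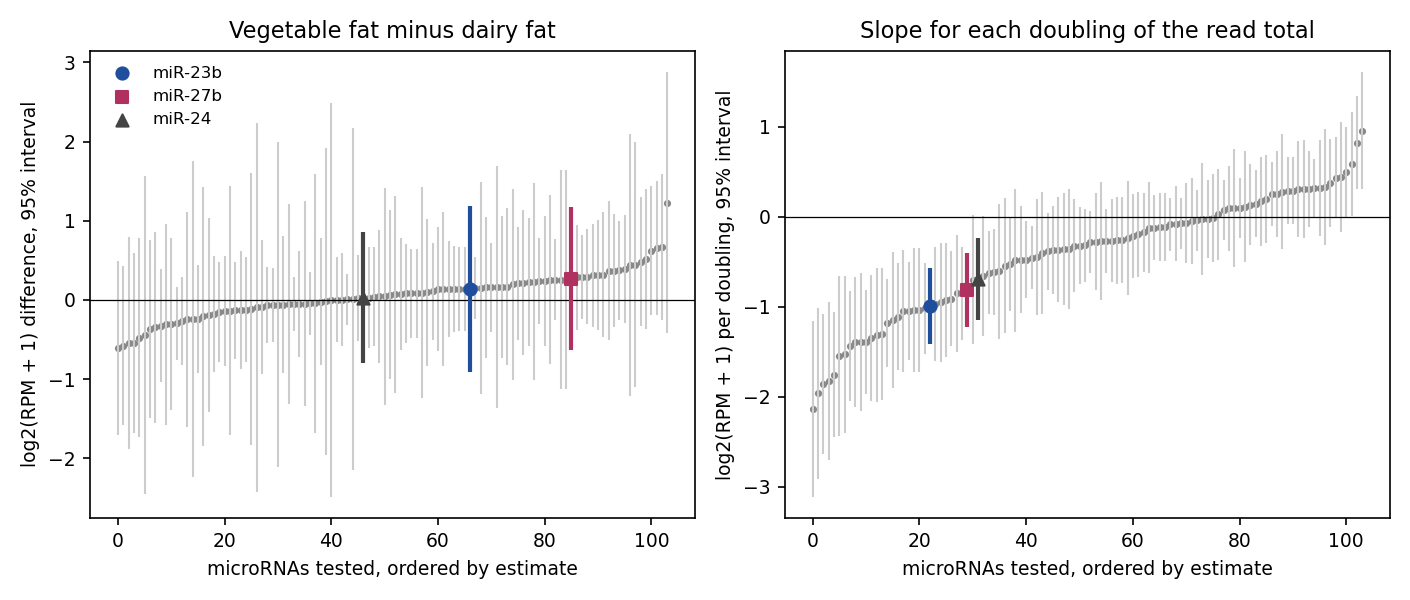
Left, log2 difference of vegetable fat minus dairy fat; right, log2 change for each doubling of the implied read total; each point is 1 of the 104 microRNAs tested, in order of its estimate, with its 95% interval and the 3 members in colour. On the left the members' intervals span 0; on the right they lie below 0, at −0.99, −0.81 and −0.69.

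A ratio of members within a sample does not depend on the scaling. MiR-27b over miR-23b was 0.748, 1.41, 1.03 and 0.962 in dairy samples 1 to 4 and 0.992, 1.14, 1.24 and 1.06 in vegetable samples 5 to 8. It was above 1 in 5 samples and below 1 in 3, so neither of the 2 was the higher in every sample. Whether their levels differed was not tested. The vegetable fat values all fell inside the dairy fat range. The log2 ratio differed by 0.13 between the diets (0.02 ± 0.37 with dairy fat, 0.14 ± 0.14 with vegetable fat, n = 4 each, SD; exact permutation p = 0.543, adjusted p = 0.686 over the 3 ratios).

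MiR-23b over miR-24 was 8.12, 5.50, 4.97 and 5.73 in dairy samples 1 to 4 and 7.19, 5.72, 5.27 and 7.996 in vegetable samples 5 to 8. MiR-23b was thus several times miR-24 in every sample, though reads of different microRNAs are captured with different efficiency and the ratio is one of reads. Means were 6.08 ± 1.40 with dairy fat and 6.54 ± 1.27 with vegetable fat (n = 4 each, SD; difference of the log2 ratio of miR-24 over miR-23b −0.11, exact permutation p = 0.686, adjusted p = 0.686). This ratio was highest in the libraries with fewest reads: the log2 ratio of miR-24 over miR-23b had r of 0.761 and rho of 0.738 with log2 read total (exact permutation p = 0.0242 and 0.0458, adjusted over the 3 ratios 0.0725 and 0.138). Without dairy sample 1 and vegetable sample 8 that r was 0.137, so the relation rested on those libraries.

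MiR-27b over miR-24 was 6.08, 7.73, 5.15 and 5.51 in dairy samples 1 to 4 and 7.14, 6.52, 6.52 and 8.50 in vegetable samples 5 to 8. All 4 vegetable fat values lay above the dairy fat median, while dairy sample 2 exceeded 3 of them. Means were 6.12 ± 1.14 with dairy fat and 7.17 ± 0.933 with vegetable fat (n = 4 each, SD). On the log2 scale miR-24 over miR-27b differed by −0.24, the widest gap of the 3 ratios, and did not pass (exact permutation p = 0.229, adjusted p = 0.686). It ran from −0.36 to −0.15 with 1 sample left out. Its r with log2 read total was 0.425 (rho 0.476), and that of miR-27b over miR-23b was 0.408 (rho 0.167), with adjusted exact permutation p of 0.324 for each r and of 0.365 and 0.703 for the rho values; without dairy sample 1 and vegetable sample 8 these r were 0.132 and −0.0201.

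**Figure D5:**
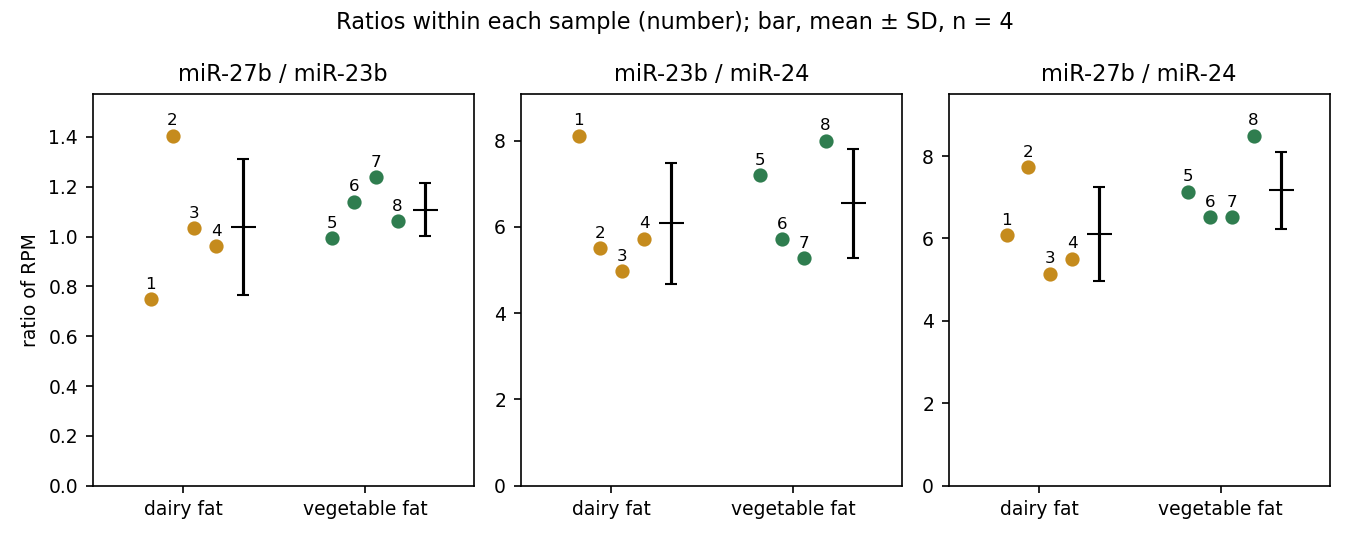
Ratio of the RPM values of member pairs within each sample (number), on axes from 0, with the mean and SD of each diet as a bar. The miR-27b to miR-23b ratio lies between 0.748 and 1.41, the ratio of either to miR-24 between 4.97 and 8.50, and the diets overlap in each panel.

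The profiles most like those of the members were partly the members themselves. By Pearson r over the 8 samples, among the other 103 microRNAs tested, the nearest to miR-23b were miR-24 (0.967), miR-221 (0.954) and miR-146a (0.940). MiR-221 is on the endothelial list read below, and miR-146a, which damps NF-kappaB signalling, is on the platelet and leukocyte lists. The nearest to miR-27b were miR-23b (0.935), miR-24 (0.930) and miR-199 (0.914), a microRNA of smooth muscle and mesenchyme. The nearest to miR-24 were miR-23b (0.967), miR-100 (0.953) and miR-130a (0.953), and miR-27b came 8th. These values describe 8 libraries that share the trend with read total, and the median r of a member with the other microRNAs was 0.54 for miR-23b, 0.43 for miR-27b and 0.55 for miR-24.

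With read total removed, the order changed. MiR-24 was then 7th for miR-23b and miR-23b 11th for miR-24, while miR-27b was 27th for miR-23b and 33rd for miR-24. For miR-27b itself, miR-23b was 9th and miR-24 11th. On the centred log ratio the ranks stayed higher: miR-24 was 2nd and miR-27b 10th for miR-23b, miR-23b was 1st and miR-24 2nd for miR-27b, and miR-23b was 3rd and miR-27b 6th for miR-24. With read total removed, r with miR-23b was 0.880 for miR-221 and 0.875 for miR-146a, against 0.740 for miR-24 and 0.534 for miR-27b. On the centred log ratio these values were 0.901, 0.855, 0.879 and 0.810 in the same order. By the SD of the log2 ratio, a measure free of the scaling, the steadiest partner of miR-27b was miR-24 (0.24), followed by miR-23b (0.27). For miR-23b the steadiest partner was miR-146a (0.25), then miR-27b (0.27) and miR-24 (0.28), and for miR-24 it was let-7c (0.21). The median SD of the log2 ratio over all partners was 0.71 for miR-23b, 0.67 for miR-27b and 0.58 for miR-24.

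Products of other clustered hairpins gave a wide range. Of 53 other pairs that share a cluster in human or mouse, 26 had both members tested, with names without a letter (miR-18, miR-20, miR-199) taken as they stand. Their median r was 0.716, with a range from −0.083 for miR-19b and miR-92a to 0.996 for miR-381 and miR-409, against a median of 0.183 over all 5353 pairs of tested microRNAs with differing values. Of the 26 pairs, 4 had a higher r than miR-27b with miR-23b, 2 a higher one than miR-24 with miR-23b and 4 a higher one than miR-24 with miR-27b. That standing did not hold on the centred log ratio, where the members' r was 0.810, 0.879 and 0.801 in that order. There the other pairs ran from −0.158 (miR-99a and let-7c) to 0.994 (miR-381 and miR-409). Pairs above all 3 included miR-18 with miR-20 (0.969) and let-7f with miR-98 (0.907), and pairs below all 3 included miR-500 with miR-532 (0.407). The SD of the log2 ratio was below that of miR-27b and miR-23b in 7 of the 26, below that of miR-24 and miR-23b in 7, and below that of miR-24 and miR-27b in 2, which were miR-660 with miR-532 and miR-18 with miR-20. Pairs of 1 cluster share members, so these counts carry no test.

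Markers of the cell types that plasma RNA can come from were read beside the members. In plasma, release by more cells and more release per cell cannot be told apart. The endothelial list had 5 listed microRNAs besides the members (miR-126, miR-221, miR-222, miR-10 and miR-100, of 8 on the list, the other 3 being the members), and all 5 were called for a slope below 0 with read total, with a median slope of −1.05 (limma), where 32.7% of all microRNAs tested were called below 0 at a median slope of −0.30. Their summed level ran from 3105 to 11312.5 RPM on dairy fat and from 2626 to 13609 RPM on vegetable fat, with the highest in vegetable sample 8 and the lowest in vegetable sample 7. Over the 8 samples miR-126 alone, which is also on the platelet list, stood at 2127 to 11325 RPM. The smooth muscle and mesenchyme list had 3 of its 5 listed (miR-145, miR-199 and miR-214), all called below 0, with a median slope of −1.75 and summed levels from 483 to 3248 RPM on dairy fat and from 432 to 4241 RPM on vegetable fat. The highest and lowest samples were the same as for the endothelial list.

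The blood cell lists were read in the same way, beside the 32.7% of all microRNAs tested that were called below 0. Of the platelet list 5 members besides miR-24 were listed (miR-126, miR-191, miR-197, miR-21 and miR-146a, of 8 on the list), 2 of them called below 0 (median slope −0.53), with summed levels from 166715 to 216417 RPM on dairy fat and from 154055 to 215756 RPM on vegetable fat. Most of that sum was miR-191, which alone stood at 147356 to 207606 RPM over the 8 samples. Of the leukocyte list 3 of 7 were listed (miR-342, miR-146a and miR-181a), 1 called below 0 (median slope −0.44), at 2777 to 6742 and 1312 to 4162 RPM. Of the erythrocyte list 4 of 10 were listed (miR-486, miR-15a, miR-92a and miR-182), 0 called below 0 (median slope −0.16), at 61365 to 99205 and 67361 to 117946 RPM. MiR-15a of this list was called above 0, with a slope of 0.83 (limma adjusted p = 0.0138). Over the 8 samples miR-486 alone stood at 53568 to 105104 RPM. The lists overlap: miR-146a was 1 of the 2 platelet calls and the only leukocyte call, and the other platelet call was miR-126, also on the endothelial list. The difference between lists was not tested. No listed marker was at 0 in any sample, and 0 were called between the diets in each list. MiR-451a and miR-144 of red cells and miR-223, miR-142 and miR-150 of white cells are not analysed here. The part of any of these cell types in the levels of the members was not tested.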

How the data were processed

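Plasma small RNA of 8 samples was analysed. Per the labels' protocols, Qiagen's miRNeasy Micro kit was used for RNA and its QIAseq miRNA kit for libraries. Cutadapt 3.4 is named in the submitters' processing notes. No source used here gives the aligner, reference set, counting tool, use of molecular identifiers or filters. The deposited values are RPM that the authors scaled to the 108 listed microRNAs, since each sample sums to 1000000. Such shares are not independent: a rise of an abundant microRNA lowers the others. Each file was assigned to its sample by the deposit's records; column headers of vegetable fat samples show running numbers unlike the titles, but the same diet.

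All values of a sample lay within 0.01 of whole multiples of 1 step, which gave implied reads if that step is 1 read. Few low values were listed to check that, so implied reads, totals and their intervals are estimates and no count test was run on them. The closest of the 28 pairs of libraries differed by a chi-square of 311 per degree of freedom, so none looked like a repeat deposit of another. This does not show that they come from separate animals. Limma 3.58.1 in R 4.3.3, on log2(RPM + 1) with a trended, robust variance, was fitted to the microRNAs that reached 1 RPM in 4 samples or more, with a threshold of 0.05 on Benjamini-Hochberg adjusted p, and checked on simulated data. Fold changes are on that log2 scale. Ratios, sums and correlations used two-sided exact permutation tests (scipy 1.17.1, Python 3.11.15). Named were the members and, for each, the 3 microRNAs of highest r; in the lists miR-199 was taken for miR-199a and miR-10 for miR-10b. Alternatives varied the pseudocount, filter, scaling, variance model, read total and samples. The members, lists and tests were chosen with earlier results of these data known.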

Additional observations from a re-analysis of the deposited data

Results flagged for a closer look

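The levels of the 3 members, their summed share and their 3 ratios were examined for a sample far from the others within its diet, by the gap to its nearest neighbour over the range of the group. Of 14 groups of 4 samples 0 passed Dixon's 95% critical value, where chance gives about 1 in 20.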

How the results depend on the processing

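Of 200 recomputed values 171 were rated the same. For most values this meant the same direction and the same side of the threshold. For the counts of called microRNAs it meant a count still at 0 or close to the main one. For the ratios with read total as a covariate only the direction was compared. The count of microRNAs called between the diets was 0 in each alternative. Signs of the diet differences, none of them called, turned as follows. Upper quartile factors gave −0.094 for miR-23b and −0.20 for miR-24, read total as a covariate −0.082 and −0.13, and the centred log ratio −0.029 for miR-24. With 1 sample left out the differences ran from −0.15 to 0.54 for miR-23b, from −0.0028 to 0.52 for miR-27b and from −0.16 to 0.28 for miR-24. The log2 ratio of miR-27b over miR-23b ran from −0.018 to 0.28 and the summed share from −0.079 to 0.26 percentage points. Slopes on read total no longer passed the threshold on the centred log ratio (−0.39 for miR-27b, −0.27 for miR-24), with upper quartile factors (−0.51 for miR-24) and without the 2 shallowest libraries, an alternative chosen after seeing the data (−0.90, −0.91 and −0.89 for miR-23b, miR-27b and miR-24, with 19 microRNAs called). With 1 sample left out the number called for a slope lay between 15 (dairy sample 1 left out) and 42 (vegetable sample 5 left out), and was 21 with vegetable sample 7 left out; the slope of miR-24 ran from −0.85 to −0.62. Correlations between members, with read total removed, were 0.53 for miR-27b and miR-23b, 0.74 for miR-24 and miR-23b and 0.48 for miR-24 and miR-27b, below the threshold in each case. The cause of these changes was not tested. The planned count tests were left out. No paired analysis was possible because the sources used here do not say which samples, if any, came from the same animal. Counting error was small beside the spread over samples, since the members had 770 implied reads or more, but that spread moved with read total. With read total as a covariate the 95% interval of the miR-23b diet difference was −0.64 to 0.47.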
